A study of Arabidopsis thaliana with 5 samples.

Results

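Trehalose 6-phosphate metabolism was followed through 10 genes of Arabidopsis thaliana, the class II trehalose phosphate synthases TPS5 to TPS11 and the phosphatases TPPA, TPPB and TPPG. They were taken by locus from the 33602 loci of the deposited tables, of which 20151 passed the expression filter. The genes were chosen with earlier values of the Col-0 and smr1 libraries in view, so the genotype difference is given for them as a description, and no test result of theirs is used as support. RNA came from nuclei of root tips of 0.5 cm, cut from seedlings grown for 5 days, protoplasted and sorted for GFP, with 120000 positive nuclei for each library. The libraries fell into a Col-0 group, which is the common laboratory accession, with 2 libraries, and an smr1 group with 3 libraries, which the series' design text calls biological replicates. All plants carried the construct SMR1:GUS-GFP, in which the SMR1 promoter drives the reporter, so nuclei were picked by the activity of the promoter of the mutated gene itself. SMR1 encodes an inhibitor of cyclin-dependent kinases that promotes endoreplication, and the sources used here do not describe the smr1 allele. The libraries keep the numbers of their labels, and values per library are given in the order Col-0 replicate 2, Col-0 replicate 4, then smr1 replicates 1, 2 and 4.

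In plants, trehalose 6-phosphate is made from UDP-glucose and glucose 6-phosphate by the class I synthase TPS1, and trehalose phosphate phosphatases (TPP) remove its phosphate to give trehalose, which the trehalase TRE1 splits into glucose. Trehalose 6-phosphate follows the level of sucrose and restrains SnRK1, a protein kinase that is active when sugar is short. The class II synthases join a synthase-like and a phosphatase-like part in 1 protein, no clear enzyme activity is established for them, and transcripts of several respond quickly to sugar: TPS5 is known as induced by sugar, and TPS8 to TPS11 as higher under sugar starvation. TPPA and TPPG are known in roots from mutants with altered epidermal hair patterns.

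The feature that both families share is the phosphatase box, at which phosphatases of this kind act on the phosphate. The stretch around it is shown because it lies in the coding sequence of every one of the 10 genes and shows how alike the 2 families are there. Sequences are from the TAIR10.1 assembly with RefSeq's gene models, on the coding strand, 5′ to 3′, and capitals mark the 5 codons of the box (searched as Asp-Tyr-Asp, any residue, Thr).
TPS5: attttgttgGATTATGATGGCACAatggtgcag
TPS6: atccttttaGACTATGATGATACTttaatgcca
TPS7: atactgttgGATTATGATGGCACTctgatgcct
TPS8: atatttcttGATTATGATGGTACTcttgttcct
TPS9: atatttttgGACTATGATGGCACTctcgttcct
TPS10: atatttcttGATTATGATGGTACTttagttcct
TPS11: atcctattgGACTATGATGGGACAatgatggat
TPPA: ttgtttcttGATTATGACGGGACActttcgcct
TPPB: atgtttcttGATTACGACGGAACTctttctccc
TPPG: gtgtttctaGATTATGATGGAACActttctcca

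Each coding sequence held the box 1 time. In the synthases it began between codon 589 (TPS11) and codon 608 (TPS6), late in coding sequences of 851 to 867 codons. In the phosphatases it began at codon 125 of 384 in TPPA, 123 of 374 in TPPB and 113 of 377 in TPPG. The fourth codon of the box was GAT in TPS6 and began with GG in the other 9 genes. The synthases had 3 coding exons each, against 11 in TPPA and TPPB and 7 in TPPG.

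TPS8 and TPS9 were the nearest pair in coding sequence, with 81.0% identity, and shared 4 words of 31 bases. TPS10 had 72.0% identity with TPS8 and 72.1% with TPS9, and all other pairs of synthases lay between 63.5% and 69.5%. TPPA and TPPG had 67.9% identity, TPPA and TPPB 59.9%, and TPPB and TPPG 58.3%. Outside the 10 genes, only TPPG shared any word of 31 bases with another coding sequence, 3 words with that of TPPF (AT4G12430). Reads from the few shared words could be assigned to either gene of a pair, so small parts of TPS8, TPS9 and TPPG values are uncertain.

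Library totals lay between 24918755 and 26823739 reads, so 3 reads, the floor used here, equal 0.11 to 0.123 CPM (reads scaled to the size of the library with its TMM factor). Floor and counting error cover sampling of reads only. All 10 genes passed the expression filter and had between 40 reads (TPPB in smr1 replicate 1) and 20374 reads (TPPG in Col-0 replicate 2) in a library. SMR1 stood at 10.97 and 21.63 CPM in Col-0 and lower in each smr1 library, at 6.02, 4.70 and 7.06 CPM. Its log2 fold change, smr1 relative to Col-0, was -1.46 with a standard error (SE) of 0.31 and did not pass the threshold of 0.05 (edgeR adjusted p = 0.725). DESeq2 gave an adjusted p of 0.0115. The fitted difference was -0.90 when Col-0 replicate 4 was left out and -1.875 when Col-0 replicate 2 was. Over all genes edgeR called 1 gene higher (0.00496%) and 0 lower (0.0%), while at an unadjusted p under 0.05 there were 798 higher (3.96%) and 583 lower (2.89%). DESeq2 called 30 higher (0.169% of 17800) and 11 lower (0.0618%). Markers of root cell types were present, and the 5 leaf mesophyll markers summed to 34.5 and 21.0 TPM in Col-0 and 68.7, 42.3 and 12.5 TPM in smr1, with RBCS2B at 0 in 3 libraries.

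TPPG was the most abundant of the 10 transcripts. Compared per length in TPM (the authors' abundance estimate, which sums to an equal total in each library), it stood at 449.9 ± 71.2 TPM (SD over all 5 libraries), above 98.3% of the genes tested. TPS7 followed at 80.1 ± 9.10 TPM, then TPS8 at 69.3 ± 12.4 TPM and TPS9 at 61.2 ± 7.81 TPM. TPS7 was above TPS8 in 5 of 5 libraries and TPS8 above TPS9 in 4 of 5, although the ranges of these neighbours overlapped. TPS11 at 36.7 ± 16.8 TPM, TPPA at 33.2 ± 8.12 TPM and TPS10 at 32.4 ± 5.50 TPM could not be put in order beyond their spread. A clear step then led down to TPS6 at 6.17 ± 1.63 TPM and TPS5 at 3.32 ± 0.75 TPM, whose ranges overlapped. TPPB was lowest, at 1.33 ± 0.29 TPM, below TPS5 in every library and above 21.2% of the genes tested.

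**Figure D1:**
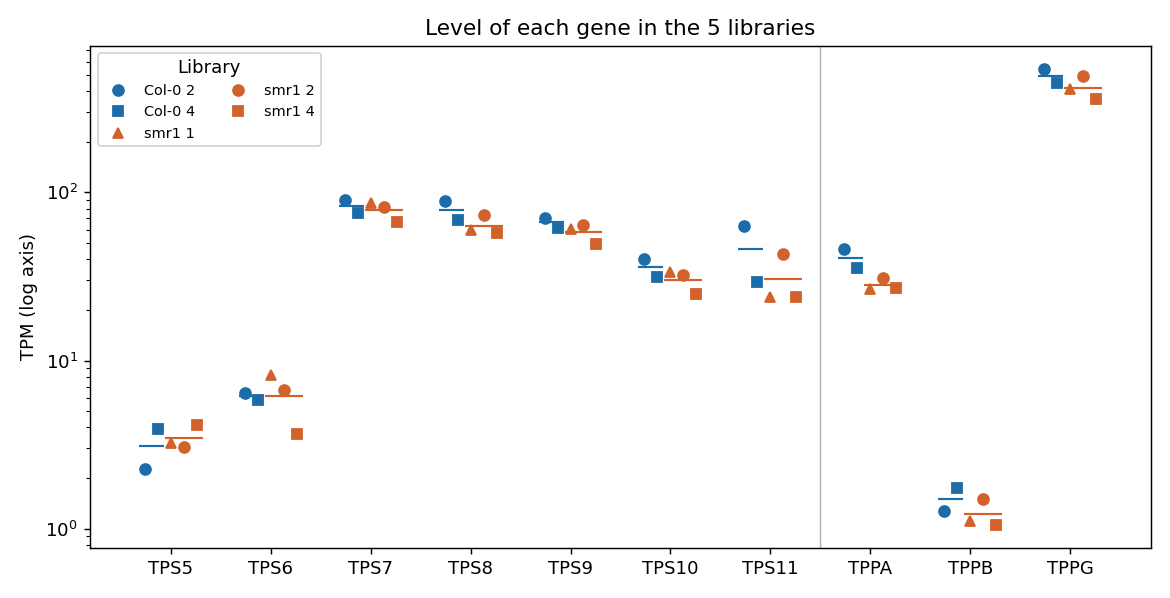
Level of the 7 synthases and 3 phosphatases in TPM (log axis) in each of the 5 libraries, with a horizontal line at the mean of each genotype. TPPG stands above all others at 357.8 to 543.8 TPM, TPS7 to TPS11 and TPPA lie between 23.98 and 89.6 TPM, and TPS5, TPS6 and TPPB lie under 10 TPM in each library.

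Within the synthases the make-up was similar in all libraries for the abundant members and varied for TPS11. The 7 synthases summed to 360.8 and 275.7 TPM in Col-0 and to 275.3, 303.8 and 230.0 TPM in smr1. TPS7 held 24.8 to 31.4% of that sum, TPS8 21.7 to 24.9%, TPS9 19.6 to 22.4% and TPS10 10.6 to 12.2%. TPS11 held 17.5 and 10.6% in Col-0, and 8.72, 14.2 and 10.4% in smr1. The 3 phosphatases summed to 591.2 and 482.3 TPM in Col-0 and to 440.6, 522.6 and 385.7 TPM in smr1, and TPPG alone made up 90.6 to 92.8% of the TPM of all 10 phosphatase genes of the genome. For both sums the smr1 range reached into the Col-0 range.

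Between genotypes, 9 of the 10 genes had a negative log2 fold change, against 48.8% of all genes tested. Their median was -0.31, beside 0.01 for all genes. In 2 of 10, TPS9 and TPPA, the genotypes did not overlap and smr1 was the lower, as in 10.1% of all genes tested. No member was called by edgeR or by DESeq2, and 1 of 10, TPPA, had an unadjusted p under 0.05, beside 6.85% of all genes tested in either direction. Since the members were picked with this contrast known, nothing is read from these counts. In bulk RNA of sorted nuclei, fewer nuclei of a type and less RNA per nucleus cannot be told apart. The median over the 7 synthases was -0.27, and over the 3 phosphatases -0.37.

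TPS5 (AT4G17770, chr4:9876172-9880386 of TAIR10.1, plus strand), the sugar-induced member, was the only one with a positive log2 fold change. It was measured at 8.75 and 14.8 CPM in Col-0, and at 11.7, 11.1 and 15.4 CPM in smr1. The smr1 libraries lay within or just above the span of the 2 Col-0 libraries. The fitted log2 fold change was 0.11 (SE 0.26), with -0.22 when Col-0 replicate 2 was left out and 0.53 when Col-0 replicate 4 was. Its library order was unlike that of the other synthases, with Col-0 replicate 2 lowest.

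TPS6 (AT1G68020, chr1:25496928-25500584, plus strand), known from a mutant with altered cell shape, was measured at 24.9 and 22.01 CPM in Col-0 and at 29.3, 24.2 and 13.6 CPM in smr1. The genotypes overlapped, and smr1 replicate 4 alone was low. A log2 fold change of -0.07 (SE 0.30) was fitted, which became 0.19 without smr1 replicate 4 and -0.31 without smr1 replicate 1. Of its 2 deposited models, the longer one held at least 99.0% of the reads in every library.

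TPS7 (AT1G06410, chr1:1954674-1958866, plus strand), the most abundant synthase, had the narrowest range over the libraries of the 10 genes. It was measured at 342.3 and 281.6 CPM in Col-0 and at 307.2, 294.4 and 244.4 CPM in smr1. Highest and lowest library differed by 0.49 on the log2 scale, when the median range over all genes tested was 0.58. Its log2 fold change was -0.15 (SE 0.14), and it went from -0.29 without Col-0 replicate 4 to -0.0049 without Col-0 replicate 2.

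TPS8 (AT1G70290, chr1:26470795-26474833, minus strand) and TPS9 (AT1G23870, chr1:8432179-8435656, plus strand) are the near pair among the starvation-related synthases. TPS8 was measured at 339.8 and 254.9 CPM in Col-0 and at 213.2, 264.5 and 211.4 CPM in smr1. The smr1 replicate 2 library lay above Col-0 replicate 4, so the groups overlapped. The fit for TPS8 gave -0.37 (SE 0.16) on the log2 scale, with -0.16 when Col-0 replicate 2 was left out and -0.57 when Col-0 replicate 4 was. TPS9 was measured at 275.7 and 234.5 CPM in Col-0 and at 218.5, 234.0 and 183.5 CPM in smr1. All smr1 libraries were lower, but smr1 replicate 2 differed from Col-0 replicate 4 by less than 1 CPM. The log2 fold change of TPS9 was -0.27 (SE 0.14), from -0.39 without Col-0 replicate 4 to -0.15 without Col-0 replicate 2.

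TPS10 (AT1G60140, chr1:22176934-22181740, minus strand), also of the starvation-related members, was measured at 156.0 and 118.0 CPM in Col-0 and at 120.5, 116.7 and 92.4 CPM in smr1. Col-0 replicate 2 was high, smr1 replicate 4 was low, and the remaining 3 libraries were level. Its fitted difference was -0.32 (SE 0.17) on the log2 scale, and it spanned -0.51 (Col-0 replicate 4 left out) to -0.11 (Col-0 replicate 2 left out).

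TPS11 (AT2G18700, chr2:8108898-8112010, plus strand) varied most. It was measured at 245.0 and 110.2 CPM in Col-0 and at 86.4, 156.6 and 89.0 CPM in smr1. The 2 Col-0 libraries stood at the top and in the middle of the 5, with smr1 replicate 2 between them. The highest library was 2.83 times the lowest, a range over libraries wider than that of 91.3% of genes. A log2 fold change of -0.68 (SE 0.39) was fitted, which became 0.00 when Col-0 replicate 2 was left out and -1.15 when Col-0 replicate 4 was. The ratio of TPS11 to TPS8 in TPM was 0.716 and 0.429 in Col-0 and 0.402, 0.588 and 0.418 in smr1, so TPS11 was high relative to TPS8 in the replicate 2 library of either genotype.

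TPPA (AT5G51460, chr5:20900859-20904647, plus strand), a phosphatase tied to root hair patterning, had the clearest separation of the genotypes. It was measured at 72.7 and 54.5 CPM in Col-0 and at 38.8, 46.0 and 40.6 CPM in smr1. All 3 smr1 libraries lay below both Col-0 libraries, and the smr1 libraries were closer to each other than the 2 Col-0 libraries. Its log2 fold change was -0.60 (SE 0.15), a level in smr1 of 0.658 times that in Col-0. It lay between -0.81 and -0.39 when single libraries were left out, nearest to 0 without Col-0 replicate 2.

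TPPA was also the member whose reads were divided between models. Its models 1 and 3 have the same coding sequence, 3 bases longer than that of model 2 (1158 against 1155), through 2 neighbouring acceptor sites before coding exon 2. The stretch chr5:20902645-20902674 of TAIR10.1 (plus strand) shows both, with the end of the intron and, in capitals, the 3 bases present only in models 1 and 3.
TPPA acceptor: atcctgttttagCAGctcaagtatccatca
The authors' estimate put 47.4 and 52.8% of TPPA reads in the 2 longer models in Col-0, and 43.0, 62.0 and 50.2% in smr1. The genotypes overlapped. The division between models rests on these 3 bases alone and is uncertain.

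TPPB (AT1G78090, chr1:29373803-29376639, plus strand), a further trehalose phosphate phosphatase, was near the lower end of what the depth measures well. It was measured at 1.93 and 2.59 CPM in Col-0 and at 1.56, 2.15 and 1.54 CPM in smr1, from 47, 69, 40, 58 and 42 reads. The smr1 replicate 2 library lay between the 2 Col-0 libraries. For TPPB the log2 fold change was -0.37 (SE 0.27), with -0.57 when Col-0 replicate 2 was left out and -0.15 when Col-0 replicate 4 was.

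TPPG (AT4G22590, chr4:11893499-11896480, minus strand), the dominant phosphatase, was measured at 836.9 and 666.0 CPM in Col-0 and at 590.6, 710.3 and 529.7 CPM in smr1. The smr1 replicate 2 library lay above Col-0 replicate 4, as for TPS8 and TPS11. For TPPG the log2 fold change was -0.30 (SE 0.16), with -0.46 when Col-0 replicate 4 was left out and -0.13 when Col-0 replicate 2 was.

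**Figure D2:**
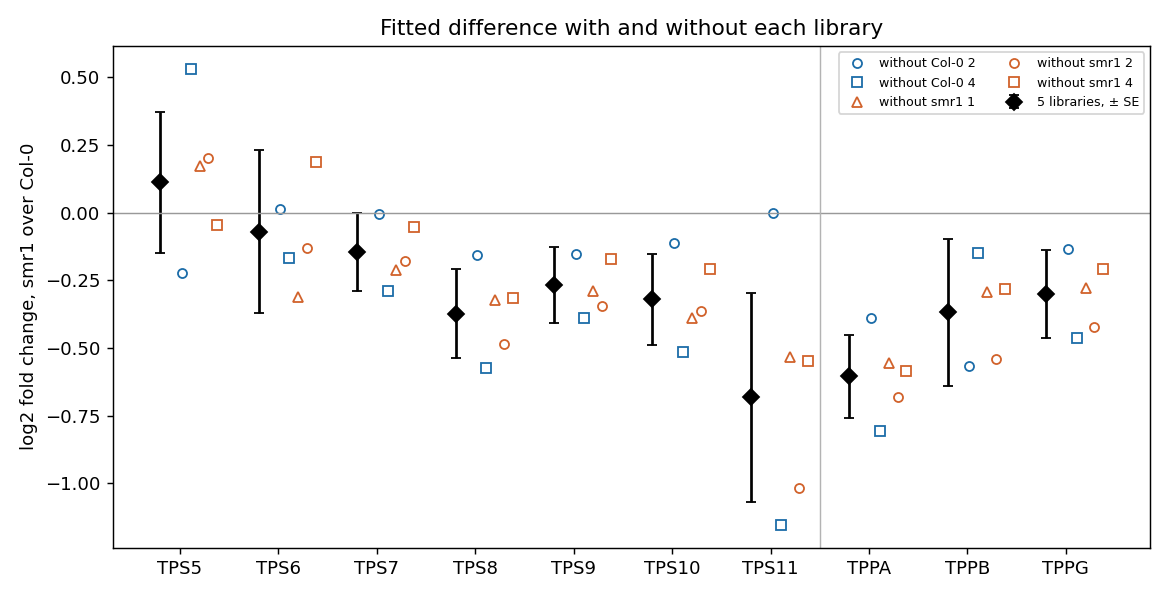
Fitted log2 fold change of each gene, smr1 over Col-0, with its SE from all 5 libraries (black) and without each library in turn (open symbols). For 8 of the 9 genes with a negative value the estimate is nearest to 0, or turns positive, without Col-0 replicate 2 or smr1 replicate 4, and TPPA stays between -0.81 and -0.39.

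Several of the 10 genes had their highest and lowest values in the same libraries. Col-0 replicate 2 was the highest library for 7 of 10 and smr1 replicate 4 the lowest for 7 of 10. Only TPS7, TPS8, TPS9, TPS10 and TPPG had both, and TPS5 had the reverse. These extremes were not counted over all genes tested, so nothing is read from the counts. The mean centred log2 CPM of the synthases was 0.28 and 0.01 in Col-0 and -0.06, 0.06 and -0.29 in smr1. For the phosphatases it was 0.31 and 0.20 in Col-0 and -0.26, 0.06 and -0.30 in smr1. In either family the spread inside a genotype was as wide as the distance between some libraries of different genotypes.

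Of the 7 other gene lists, 2 had their libraries in the same order as TPS11 by mean centred log2 CPM. They were abscisic acid (ABA) and osmotic stress, and sucrose and UDP-glucose supply. Genes with this order were not counted over all genes tested, so nothing is read from it. The 12 tested genes of the ABA list had mean centred log2 CPM of 0.74 and -0.08 in Col-0 and -0.53, 0.22 and -0.35 in smr1, and together 7076 and 4045 CPM in Col-0 and 3162, 4762 and 3362 CPM in smr1. The 16 tested genes of sucrose and UDP-glucose supply stood at 0.25 and -0.01 in Col-0 and -0.12, -0.01 and -0.11 in smr1, so Col-0 replicate 4 and smr1 replicate 2 were nearly level, as were smr1 replicates 1 and 4. Their summed CPM, 2264 and 2024 in Col-0 and 1772, 1886 and 1948 in smr1, had another order. The part of either list in the TPS and TPP values was not tested. The sugar starvation markers, against which TPS8 to TPS11 are usually set, stood at -0.02 and -0.18 in Col-0 and 0.38, 0.21 and -0.39 in smr1. Their highest library, smr1 replicate 1, was the lowest for TPS11 and TPPA, and their lowest, smr1 replicate 4, was also the lowest for TPS8, TPS9 and TPS10.

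**Figure D3:**
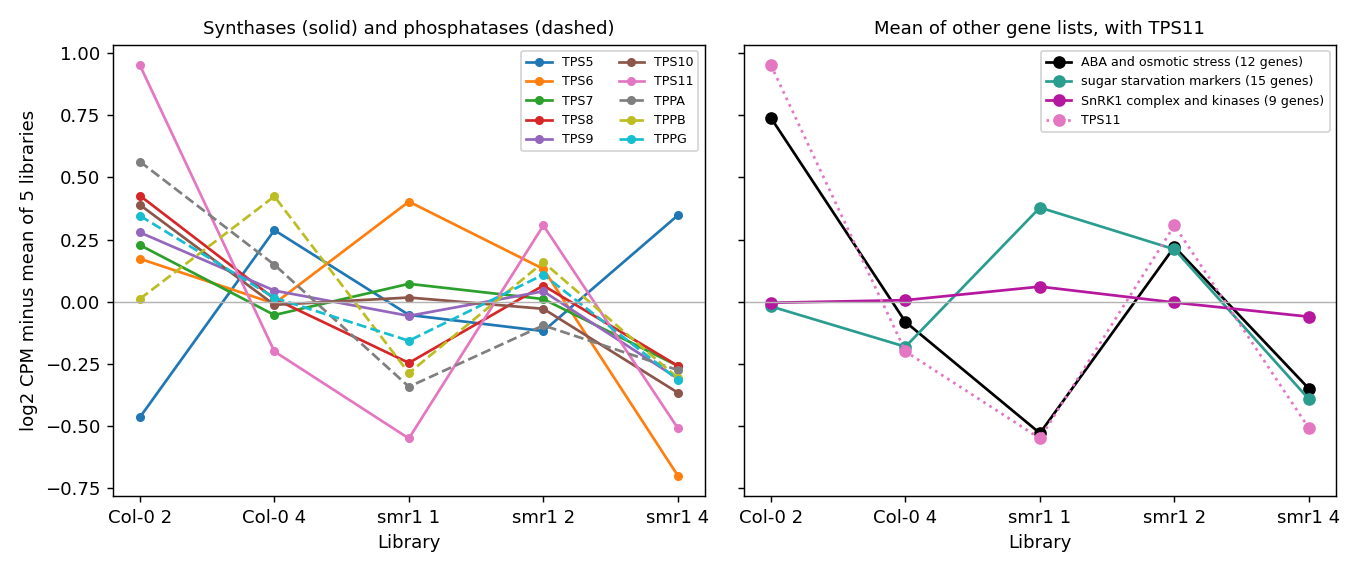
Centred log2 CPM of the 10 genes in each library (left, synthases solid and phosphatases dashed) and means of 3 other gene lists with TPS11 (right). Lines join the values of a gene or list, and libraries have no order. TPS11 and the ABA and osmotic stress list are both highest in Col-0 replicate 2, at 0.95 and 0.74, and lowest in smr1 replicate 1, at -0.55 and -0.53.

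The other genes of trehalose metabolism were low, and 6 of 12 passed the expression filter. Of these, 0 were called by edgeR, which called 1 of all 20151 genes tested. DESeq2 called 0, beside 0.169% higher and 0.0618% lower over all genes, and gave TPPD no adjusted p. An edgeR unadjusted p under 0.05 was found for 0, beside 6.85% of all genes tested. TPS1, the class I synthase that makes trehalose 6-phosphate, was measured at 4.48 and 4.99 CPM in Col-0 and at 4.38, 5.33 and 5.59 CPM in smr1 (log2 fold change 0.11, SE 0.19). TRE1, the trehalase, was measured at 15.5 and 12.3 CPM in Col-0 and at 10.9, 12.8 and 12.3 CPM in smr1 (log2 fold change -0.21, SE 0.16). For both the genotypes overlapped.

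Among the other phosphatases, TPPF was measured at 5.79 and 0.675 CPM in Col-0 and at 1.02, 2.96 and 0.441 CPM in smr1. The replicate 2 library was the highest of either genotype. Its log2 fold change was -1.12 (SE 0.96), and it was 1.12 when Col-0 replicate 2 was left out and -1.98 when Col-0 replicate 4 was. TPPD had 0.40 (SE 0.62), TPPI -0.04 (SE 0.46) and TPPJ -0.07 (SE 0.58) as log2 fold changes. TPS2, TPS3 and TPPC had 0 reads in all libraries, which allows up to 3 reads in each. TPS4, TPPE and TPPH had at most 12 reads in a library. The highest value of any of the 7 other phosphatases in a library was 4.88 TPM.

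Around the pathway, the 7 lists of other trehalose, SnRK1, bZIP, starvation, sucrose supply, stress and wounding genes held 85 genes, of which 74 were tested. None of the 74 was called by edgeR, which called 1 of all 20151 genes tested. DESeq2 called none either, beside 0.169% higher and 0.0618% lower over all genes, and gave no adjusted p for TPPD and a gene of sucrose supply. An edgeR unadjusted p under 0.05 was found for 4, beside 6.85% of all genes tested. Of the SnRK1 complex and its activating kinases, 6 of 9 had a positive log2 fold change with a median of 0.06. SNF4, a regulatory subunit, had 0.13 (SE 0.10), KING1, a gamma-type subunit, -0.23 (SE 0.19) and GRIK1, an activating kinase, -0.15 (SE 0.14). KIN10, a catalytic subunit, stood between 71.5 and 85.8 CPM in all libraries. Of the C and S1 group bZIP factors, which act with SnRK1 in low-energy responses, 8 of 9 were negative with a median of -0.16. BZIP25 had -0.22 (SE 0.11), BZIP10 -0.16 (SE 0.11) and BZIP1 -0.22 (SE 0.19).

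Of the sugar starvation markers, 14 of 15 had a positive log2 fold change, with a median of 0.11, where 48.8% of all genes tested were negative. DRM2, a dormancy-associated transcript, was measured at 50.1 and 51.8 CPM in Col-0 and at 103.6, 97.8 and 42.1 CPM in smr1, so smr1 replicate 4 lay below both Col-0 libraries. DIN10 had a log2 fold change of 0.34 (SE 0.23) and DIN2 of 0.72 (SE 0.51). Without smr1 replicate 1, several of the 15 markers turned negative, while DRM2, DIN10 and DIN2 stood at 0.46, 0.14 and 0.69. ASN1, the asparagine synthetase used as a starvation marker, overlapped between genotypes, with 710.2 and 368.6 CPM in Col-0 and 647.9, 688.0 and 248.4 CPM in smr1.

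Of the genes for sucrose and UDP-glucose supply, 12 of 16 were negative, with a median of -0.15, and in 6 of 16 the smr1 libraries were all lower than the Col-0 libraries, which 10.1% of all genes tested showed. SPSA2, a sucrose phosphate synthase that uses UDP-glucose, was measured at 497.9 and 400.9 CPM in Col-0 and at 183.7, 308.2 and 291.8 CPM in smr1. Its groups did not overlap, and the log2 fold change was -0.78 (SE 0.23) with an edgeR adjusted p of 0.725. The sucrose synthases SUS3 and SUS4 had log2 fold changes of -0.28 (SE 0.11) and -0.29 (SE 0.13), with edgeR adjusted p of 0.725 and 0.726.

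Of the ABA and osmotic stress genes, 12 of 12 were negative, against 48.8% of all genes tested, with a median of -0.55. In 1 of 12 every smr1 library was below both Col-0 libraries, as in 10.1% of all genes tested. RD29A, a stress marker, was measured at 551.7 and 208.7 CPM in Col-0 and at 140.9, 260.8 and 157.1 CPM in smr1 (log2 fold change -1.03, SE 0.43, edgeR adjusted p = 0.725). ABI1, a phosphatase that damps ABA signalling, had -0.58 (SE 0.19, edgeR adjusted p = 0.725), and its groups did not overlap. COR47, a dehydrin, had -0.43 (SE 0.20). Without Col-0 replicate 2, several of the 12 genes turned positive, and RD29A, ABI1 and COR47 stood at -0.17, -0.35 and -0.13. The wounding and touch genes gave 3 positive and 4 negative values with a median of -0.04, with TCH2 at 0.25 (SE 0.21), JAZ1 at -0.16 (SE 0.17) and JAZ2 at -0.14 (SE 0.21).

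**Figure D4:**
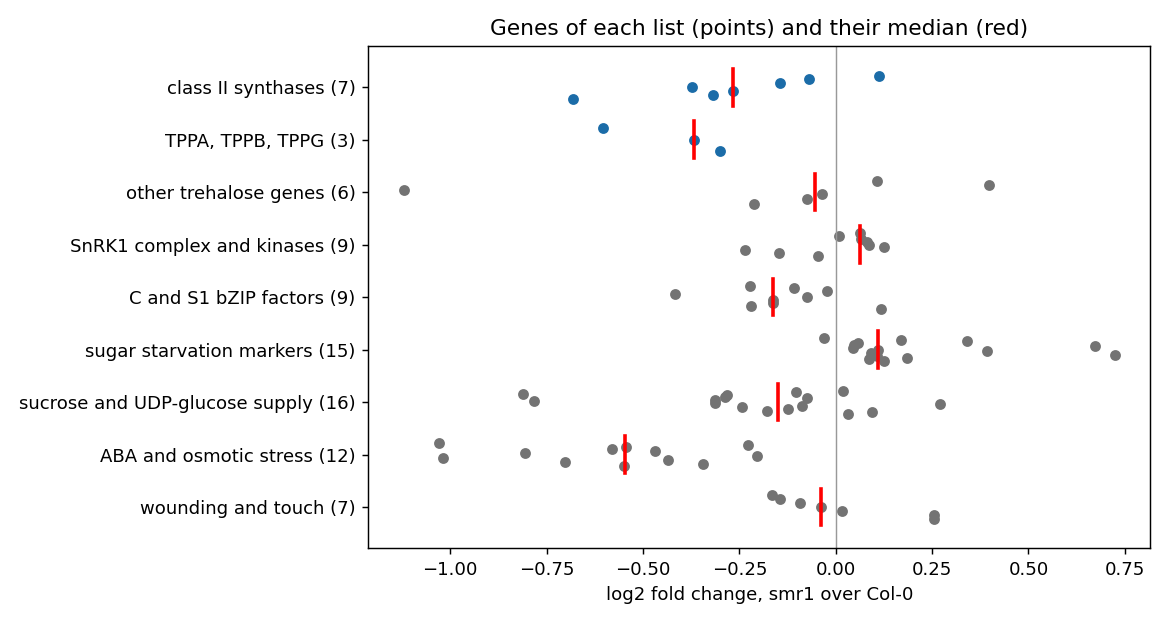
Log2 fold change, smr1 over Col-0, of every tested gene in the 2 families (blue) and in 7 other lists (grey), with the number of tested genes in brackets and the median in red. In the fit of all 5 libraries, the ABA and osmotic stress genes lie wholly below 0 with a median of -0.55. The sugar starvation markers lie mostly above 0 with a median of 0.11. Several signs in both lists change when a single library is left out.

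Since TPPA and TPPG are tied to root hair patterning, the epidermal markers were set beside them. The 6 root hair markers summed to 23.2 and 34.3 CPM in Col-0 and 25.7, 15.95 and 26.1 CPM in smr1. None was at 0 in any library, and their median log2 fold change was -0.38. In 2 of 6 every smr1 library was below both Col-0 libraries, beside 10.1% of all genes tested. The 3 markers of non-hair epidermis summed to 206.5 and 229.4 CPM in Col-0 and 265.3, 247.0 and 266.6 CPM in smr1, with a median of 0.27. For 2 of 3 every smr1 library was above both Col-0 libraries, beside 13.7% of all genes tested. The 5 xylem markers summed to 2075 and 1945 CPM in Col-0 and 1542, 1729 and 1882 CPM in smr1, with a median of -0.23, and 4 of 5 had no smr1 library at or above a Col-0 library, beside 10.1% of all genes tested. The part of these cell types in the TPPA, TPPG and synthase values was not tested.

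The region before each gene was searched for motifs known from sugar and bZIP responses, in the 300 bases before the annotated gene start, on both strands. TATCCA, a sugar response element, was found before 3 of 10 genes, TPS6, TPS10 and TPS11, and before 16.2% of 27443 protein-coding genes. CACGTG, the G-box, was found before TPS6 alone (7.09% of all genes), ACTCAT before TPS5 and TPS6 (14.8%), and GACGTC, the C-box, before 0 of 10 (2.61%). The TATCCA matches are shown on the strand of the gene, with the motif or its reverse complement in capitals, and none overlapped another motif searched. They stand at chr1:25496897-25496922 (plus) for TPS6, chr1:22181741-22181757 (minus) for TPS10 and chr2:8108747-8108772 (plus) for TPS11.
TPS6 upstream: atgctctcgtTGGATAcattaattgt
TPS10 upstream: gctatttcatTGGATAt
TPS11 upstream: ataccaatcaTATCCAtctcgagaaa
The match began 21 bases before the gene start in TPS6, 7 in TPS10 and 141 in TPS11. These 3 genes did not share a library pattern, since smr1 replicate 1 was the highest library for TPS6 and the lowest for TPS11.

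The genes whose library profile lay nearest to the mean of the synthases were AT4G14500, AT4G16680, AT5G18370, AT4G40045 and WRKY4. Their root mean square differences from that profile were 0.0077, 0.0149, 0.0264, 0.0271 and 0.0297 in centred log2 CPM over the 5 libraries, where the profile itself had a root mean square of 0.186. Of 20141 genes compared, 468 lay within 0.1 of the synthase mean.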

How the data were processed

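RNA-seq of sorted nuclei from 2 Col-0 and 3 smr1 libraries was used. Per the file headers, the tables the authors deposited list 41671 transcript models with their length, a TPM value and an expected count. The submitters' processing notes name Salmon 0.7.2, CASAVA and TAIR10 but not what each was used for. Strand setting and read filters were not given in the sources used here. Since 93.36% of lengths were multiples of 3, lengths are coding lengths and reads from untranslated regions mostly went uncounted. Symbols, coordinates and sequences came from RefSeq's TAIR10.1, where all 13 models of the 10 genes had the same coding length (96.5% of 34613 shared models did).

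Expected counts were summed per locus and rounded. All genes were fitted together with edgeR 4.0.16 in R 4.3.3 (minimum count 10, minimum total 15, TMM, robust quasi-likelihood F test, 3 residual degrees of freedom, two-sided, Benjamini-Hochberg adjustment, threshold 0.05). SE came from the F statistic. Centred log2 CPM used a prior count of 1. DESeq2 1.42.0 and limma 3.58.1 on log2(TPM + 1) were alternatives. Deposited TPM values, summed per locus, served for levels between genes. Coding sequences were aligned with Biopython 1.88. The code was tested on simulated data. No pair of libraries agreed within sampling noise (chi-square per degree of freedom 14.8 to 53.5). Beyond the design text's term biological replicates, no label says that libraries came from separate cultures, so p-values measure the spread between these libraries.

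The members and all gene lists were chosen with earlier results of these data known. Named genes were the 10 members, SMR1, all other trehalose genes, the 3 genes of smallest p in each list with no call, and the 5 genes nearest to the synthase profile. Of the others, KIN10 and ASN1 were chosen after their values were seen. PLT1, PLT2, WOX5 and RBCS2B came from the cell type marker lists, to which the rule of smallest p was not applied. List symbols matched the annotation for 123 of 128 genes, and the others kept their loci.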

Additional observations from a re-analysis of the deposited data

How the results depend on the processing

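The number of genes called higher in smr1 was 1 and became 3 with no filter, 30 with DESeq2, 2 with the replicate block and 0 with limma on log2(TPM + 1), and was 0 to 0 when single libraries were left out. Genes called lower numbered 0 and 11 with DESeq2. SMR1 passed the threshold with DESeq2 (log2 fold change -1.48, adjusted p = 0.0115). The causes were not tested. The replicate number was used as a block although the labels tie it to no batch. Deviations from the group mean, in libraries with the same number, correlated across genes at 0.397 (number 2) and 0.185 (number 4). Only 2 numbers were shared. With 2 Col-0 libraries, the deviations of replicate 4 are those of replicate 2 with the sign reversed. The 2 correlations are therefore tied to each other, and nothing is read from them. The block gave medians of -0.32 for the synthases and -0.30 for the phosphatases. It put TPS6 at -0.36 in place of -0.07, and called no pathway gene. Members with every smr1 library below both Col-0 libraries numbered 2, 1 on log2(TPM + 1), and 2 to 7 when single libraries were left out, with 7 without Col-0 replicate 4 and 6 without smr1 replicate 2, where fewer libraries must differ. Leaving out single libraries moved the synthase median between -0.39 and -0.11 and the phosphatase median between -0.54 and -0.28. Of 100 member values under alternatives, 96 moved by less than the pooled SD between replicates of that gene, and the 4 others came from leaving out a library. That SD was 0.475 for TPS6, whose moves all stayed within it. For TPS11 it was 0.614, and leaving out Col-0 replicate 2 moved the value beyond it, from -0.68 to 0.001. TPPA moved beyond its SD on leaving out either Col-0 library, and TPS5 on leaving out Col-0 replicate 4. The sign held in 10 of 10 settings for TPS7, TPS8, TPS9, TPS10, TPPA, TPPB and TPPG, in 9 for TPS11 and in 8 for TPS5 and TPS6. Depth limits TPPB, TPS5 and the other trehalose genes most.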

Other observations

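The profiles of TPS11 and TPPA were also compared with all genes, a step chosen after their values were seen. Nearest to TPS11 were ERD10, MAPKKK13, AT4G25670, AT1G77680 and LTI30, with root mean square differences of 0.0185 to 0.047 in centred log2 CPM over 5 libraries, and 27 of 20141 genes lay within 0.1. ERD10 and LTI30 encode dehydrins. Nearest to TPPA were AT3G20340, DBP1, PPC3, PD1 and AT1G62840, with differences of 0.0381 to 0.0608 and 56 genes within 0.1.

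Other root cell types were measured at low levels. The 4 endodermis markers summed to 20.3 and 33.1 CPM in Col-0 and 29.3, 23.7 and 25.3 CPM in smr1, the 3 phloem markers to 31.7 and 16.2 CPM and to 10.3, 31.01 and 24.4 CPM. The 4 root cap markers summed to 4.31 and 3.94 CPM in Col-0 and 4.81, 5.88 and 4.82 CPM in smr1, with 4 of 4 positive log2 fold changes. Of the 3 meristem markers, PLT1 had a log2 fold change of 0.84 (SE 0.31) and PLT2 of 1.40 (SE 0.50), and for both of them the smr1 libraries were all higher than the Col-0 libraries, as for 13.7% of all genes tested. Neither passed over all genes (edgeR adjusted p = 0.725 for each). WOX5 was measured at 4.56 and 0.637 CPM in Col-0 and at 0.978, 3.96 and 0.625 CPM in smr1, with the replicate 2 library highest in either genotype.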
